A study of Mus musculus with 6 samples.

Results

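Expression of the enzymes that start mucin-type O-glycosylation was examined in osteoblasts of wild-type mice and of mice with conditional knockout of the TET genes. The set consisted of 10 genes, which were Galnt1, Galnt2, Galnt3, Galnt7, Galnt10, Galnt11, Galnt12, Galnt16, Galnt18 and C1galt1, found by symbol among the 55471 genes of the count table. The 10 genes were chosen by their role with measured levels and fold changes of this same genotype comparison in view. Their levels and differences are therefore given as a description, with intervals and with no p. Galnt4 and Galnt17, 2 well expressed genes of the same family, were not in the set and are described as relatives. Poly(A) RNA was sequenced from primary osteoblasts, the bone-forming cells, taken from the skull cap (calvaria) of 3-day-old C57BL/6 mice and kept in culture before RNA extraction. WT libraries (3) came from wild-type mice. TCKO libraries (3) came from mice with Prx1-Cre and floxed alleles of Tet1 (fl/fl), of Tet2 (fl/fl) and of Tet3 (fl/fl), in which Cre recombinase under the Prx1 promoter, active in limb and part of the skull mesenchyme, removes floxed segments of all TET genes. Cells of the culture in which Prx1-Cre was never active would keep their Tet genes.

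Mucin-type O-glycosylation begins in the Golgi, where a family of polypeptide N-acetylgalactosaminyltransferases (the GALNT enzymes) links N-acetylgalactosamine (GalNAc) to serine or threonine of a passing protein. Some members act on bare peptide, and others prefer peptide that already carries GalNAc, so that the mixture of enzymes in a cell shapes which sites are filled. The product of C1galt1 then adds galactose and makes core 1, the base of most longer chains. In bone, the best known case is Galnt3, whose product glycosylates the phosphate-regulating hormone FGF23 and protects it from cleavage. TET enzymes oxidise methylated cytosine, which in mammals lies mainly in CpG (a C followed by a G).

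Promoter sequences are shown for genes of the set because CpG is where TET enzymes act. RefSeq promoters of GRCm38.p6, each running from 250 bases before to 50 bases after a transcription start, were read for 6 of the 10 genes, and those of Galnt1, Galnt2, Galnt12 and Galnt18 are not shown. Galnt10 and Galnt16 are printed as the genes among these 6 whose RNA differed most between genotypes, and C1galt1 as one whose RNA differed least. Capitals mark every CpG, and all 4 sequences lie on the plus strand and read 5′ to 3′.
Galnt10, chr11:57645192-57645491: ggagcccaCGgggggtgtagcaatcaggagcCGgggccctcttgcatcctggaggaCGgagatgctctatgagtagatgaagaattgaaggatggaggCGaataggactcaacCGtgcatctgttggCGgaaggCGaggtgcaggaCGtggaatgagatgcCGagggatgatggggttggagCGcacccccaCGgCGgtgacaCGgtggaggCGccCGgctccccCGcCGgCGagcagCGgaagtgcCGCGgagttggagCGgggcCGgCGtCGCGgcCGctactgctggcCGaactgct
Galnt16 upstream start, chr12:80518221-80518520: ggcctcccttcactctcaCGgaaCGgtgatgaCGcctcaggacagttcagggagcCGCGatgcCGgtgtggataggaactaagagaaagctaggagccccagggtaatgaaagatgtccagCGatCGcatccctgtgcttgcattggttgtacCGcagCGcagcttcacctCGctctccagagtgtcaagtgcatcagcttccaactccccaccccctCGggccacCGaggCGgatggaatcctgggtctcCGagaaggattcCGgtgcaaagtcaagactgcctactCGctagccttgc
Galnt16 downstream start, chr12:80518740-80519039: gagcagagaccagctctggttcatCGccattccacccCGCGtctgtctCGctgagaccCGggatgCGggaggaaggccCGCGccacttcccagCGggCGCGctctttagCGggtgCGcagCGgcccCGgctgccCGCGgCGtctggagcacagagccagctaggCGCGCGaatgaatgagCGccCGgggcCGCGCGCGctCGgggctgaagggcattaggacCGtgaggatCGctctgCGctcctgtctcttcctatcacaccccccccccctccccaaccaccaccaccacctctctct
C1galt1, chr6:7844974-7845273: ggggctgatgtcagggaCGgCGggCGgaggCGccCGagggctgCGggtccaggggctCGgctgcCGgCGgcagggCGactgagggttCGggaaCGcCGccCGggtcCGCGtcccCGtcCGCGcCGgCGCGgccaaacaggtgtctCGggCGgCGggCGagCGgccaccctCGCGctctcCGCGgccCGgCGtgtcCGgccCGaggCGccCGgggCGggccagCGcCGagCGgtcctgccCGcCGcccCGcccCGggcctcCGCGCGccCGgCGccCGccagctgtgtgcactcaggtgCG
The Galnt10 promoter held 28 CpG and the C1galt1 promoter 52. Galnt16 had 3 annotated starts, with 17, 30 and 31 CpG. Over 32851 promoters of this length, of 27025 genes, the median was 7 CpG and the quartiles were 3 and 20. The other promoters of the set held 41 CpG for Galnt3, 25 for Galnt7, and 23 and 7 for the starts of Galnt11. Letters of a RUNX motif (TGTGGT, either strand) were in 0 of the 9 promoters of these 6 genes and in 16.8% of all promoters. The GC box (GGGCGG, either strand) was found in 4 of the 9 promoters of these genes and in 35.7% of all promoters. The CCAAT box (CCAAT, either strand) was found in 1 of the 9, at the upstream start of Galnt16, and in 37.4% of all promoters. None of these motifs is contained in another, and a match describes the sequence only. Methylation of these windows was not analysed here.

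Libraries held between 8019999 and 10177214 counts, and the detection floor of 3 counts stood at 0.295 to 0.374 CPM (counts scaled to a library of 1000000), for counting error only. Replicates 1 and 2 of each genotype were much closer to each other than to replicate 3, with a chi-square statistic, divided by its degrees of freedom, of 1.69 for WT and 2.04 for TCKO against 16.5 to 23.3 for the other pairs. Mitochondrial genes took 2.22% and 2.47% of counts in the replicate 3 libraries and 1.11% to 1.24% in the others. TCKO replicate 3 also stood apart in sex-linked RNA, with 4583 counts of Xist and 0 of Ddx3y against 1 to 4 and 675 to 1094 in the other libraries. By these RNAs TCKO replicate 3 came from female cells and the other libraries from male cells. Sex therefore differed within TCKO, and TCKO replicate 3 did not share an animal with TCKO replicates 1 and 2. Beyond this, the labels do not say whether replicates came from separate animals or cultures. The errors therefore measure the spread between these libraries, which may be partly technical. Of the targeted genes, Tet1 had 98, 131 and 115 WT counts against 68, 51 and 51 TCKO counts, Tet2 did not pass the test, and Tet3 was higher in TCKO (log2 fold change 0.51 ± 0.09, SE). Counts over whole genes do not separate the floxed exons, so directions below rest on the genotype labels.

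Galnt18 was the gene of the set that differed most. Galnt18 (ENSMUSG00000038296, chromosome 7, 111471661 to 111779977, minus strand, GRCm38) spans 308317 bp with 2575 bp of exon and shares no exon sequence with another gene. Its product belongs, with that of Galnt17, to the Y subfamily of the GALNT enzymes. Galnt18 had 85, 91 and 86 counts in WT replicates 1, 2 and 3, or 10.3, 9.08 and 10.4 CPM. In TCKO it had 1064, 1037 and 1651 counts, or 121, 129 and 185 CPM. Every TCKO library lay far above every WT library, and TCKO replicate 3 was the highest. Mean levels were 9.93 ± 0.740 CPM for WT and 145 ± 34.8 CPM for TCKO (SD, n = 3). The log2 fold change was 3.87 ± 0.19 (SE; 95% interval 3.44 to 4.31), or 14.6-fold. Among the 13826 genes tested, this was number 31 counted from the most increased. Within replicate numbers, the log2 difference in CPM plus 2 was 3.33, 3.56 and 3.91 for replicates 1, 2 and 3. Without both replicate 3 libraries the log2 fold change was 3.70, and it ranged from 3.66 to 3.98 over 17 alternative fits.

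Among 9262 tested genes with a mean of at least 100 counts, those whose log2 CPM followed Galnt18 most closely over the 6 libraries were Frmd8, 5031439G07Rik, F3, Mcc and Khsrp, each with a Pearson r of 0.997. This likeness is a description over 6 points that separate mainly by genotype, and 826 genes had an r over 0.9. The sizes of the differences were not alike, since F3, the gene for tissue factor, had a log2 fold change of 2.63 and the other 4 had between 0.43 and 0.58.

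Galnt16 was also higher in TCKO. Galnt16 (ENSMUSG00000021130, chromosome 12, 80518277 to 80630972, plus strand) encodes a further GALNT enzyme, and 632 of its 8047 exonic bp overlap genes on the other strand. Its libraries held 65, 89 and 43 counts in WT (7.87, 8.88 and 5.21 CPM) and 231, 217 and 96 in TCKO (26.4, 27.0 and 10.8 CPM). The genotypes did not overlap, but TCKO replicate 3 lay nearer to the WT libraries than to the other TCKO libraries. Means were 7.32 ± 1.89 CPM for WT and 21.4 ± 9.19 CPM for TCKO (SD, n = 3), with the log2 fold change at 1.53 ± 0.36 (SE; 95% interval 0.69 to 2.37), or 2.89-fold. Within replicates the log2 difference was 1.52, 1.41 and 0.82. The log2 fold change was 1.58, 1.70 and 1.34 without WT replicates 1, 2 and 3, and 1.35, 1.33 and 1.86 without TCKO replicates 1, 2 and 3. Without both replicate 3 libraries it was 1.66, and with replicates 1 and 2 summed it was 1.45 ± 0.48 (SE).

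Galnt10 was the gene of the set with the largest decrease in TCKO. Its product acts mainly on peptide that already carries GalNAc. Galnt10 (ENSMUSG00000020520, chromosome 11, 57645442 to 57787514, plus strand) reached WT counts of 1768, 2068 and 1315 (214, 206 and 159 CPM) and TCKO counts of 895, 762 and 720 (102, 94.7 and 80.8 CPM). The lowest WT library, replicate 3, was still above the highest TCKO library. Means were 193 ± 29.6 CPM for WT and 92.5 ± 10.9 CPM for TCKO (SD, n = 3), with the log2 fold change at -1.06 ± 0.13 (SE; 95% interval -1.37 to -0.75), or 2.09-fold lower. Within replicates the log2 difference was close to equal, at -1.05, -1.11 and -0.96. It was -1.09 without both replicate 3 libraries and -1.04 with replicates 1 and 2 summed.

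**Figure D1:**
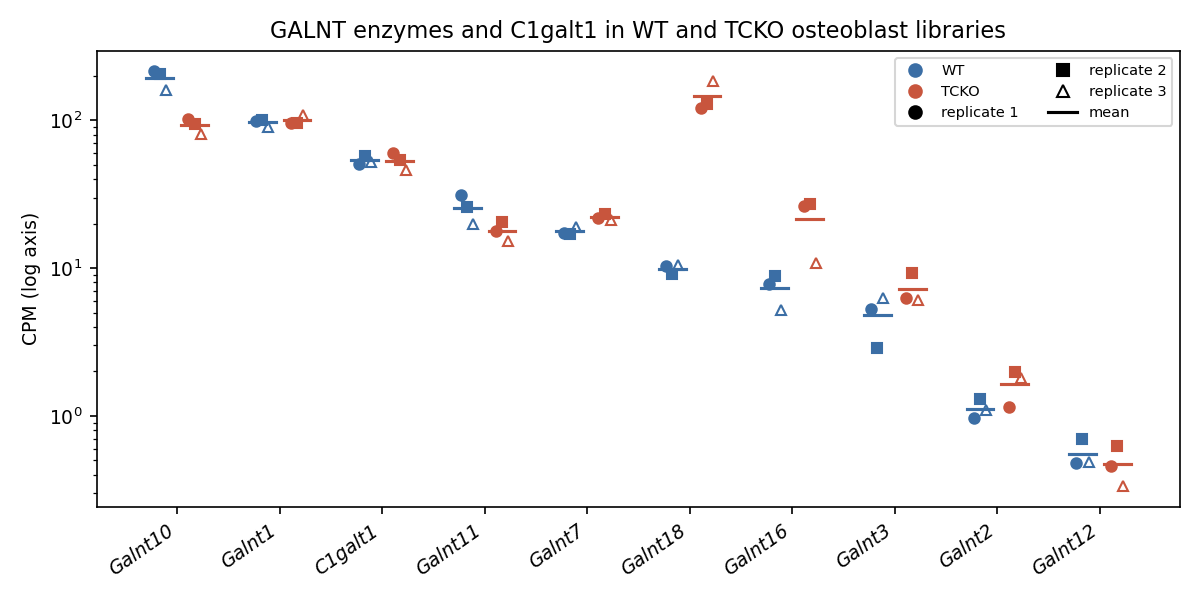
Level of each of the 10 genes in every library, in CPM on a log axis. Blue is WT and red is TCKO, the symbol gives the replicate (replicate 3 open), and each horizontal line is the mean of 3 libraries. Galnt18 moves from about 10 CPM to over 100 CPM, Galnt10 lies lower and Galnt16 higher in TCKO, and most of the others overlap or lie close together.

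The other GALNT enzymes of the set differed less. Galnt1 (chromosome 18, 24205344 to 24286818), which encodes a broadly acting enzyme that fills bare peptide, had 98.3, 101 and 90.6 CPM in WT and 96.0, 95.8 and 109 CPM in TCKO. These overlapped, with a log2 fold change of 0.05 ± 0.08 (SE; 95% interval -0.14 to 0.25) that became -0.01 without TCKO replicate 3. Galnt7 (chromosome 8, 57523828 to 57653032), whose product like that of Galnt10 prefers GalNAc-bearing peptide, had 17.3, 17.1 and 18.9 CPM in WT and 21.7, 23.2 and 21.2 CPM in TCKO. All TCKO libraries were above all WT libraries for Galnt7, by a log2 fold change of 0.31 ± 0.10 (SE; 95% interval 0.07 to 0.55). Without both replicate 3 libraries it was 0.39.

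Galnt11 (chromosome 5, 25221904 to 25265918), whose product can glycosylate NOTCH1 and LDL-receptor family proteins, had 31.1, 25.8 and 19.9 CPM in WT and 17.9, 20.6 and 15.3 CPM in TCKO. Here WT replicate 3 fell within the TCKO range. The log2 fold change was -0.52 ± 0.18 (SE; 95% interval -0.94 to -0.09). It was -0.67 without WT replicate 3, -0.56 without both replicate 3 libraries, -0.50 with the replicate number as a block and -0.48 with that block and replicates 1 and 2 summed. Genes on the other strand share 306 of its 6853 exonic bp. Galnt3 (chromosome 2, 66082766 to 66124994) had WT counts of 44, 29 and 52 and TCKO counts of 55, 75 and 54, or 5.33, 2.89 and 6.30 against 6.28, 9.32 and 6.06 CPM. Its genotypes overlapped, with a log2 fold change of 0.58 ± 0.31 (SE; 95% interval -0.14 to 1.31). It was 0.95 without both replicate 3 libraries. Fgf23 had 0 counts in every library.

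Galnt2 and Galnt12 had few counts in every library. Galnt2 (chromosome 8, 124231391 to 124345724), for another broadly acting enzyme, had WT counts of 8, 13 and 9 and TCKO counts of 10, 16 and 16, and its log2 fold change was 0.53 ± 0.33 (SE; 95% interval -0.24 to 1.30). Of its 4282 exonic bp, 3854 are shared with other genes, chiefly Gm20388 on the same strand, which had 0 counts, so 428 bp are its own. Galnt2 levels are therefore uncertain, because the way shared reads were counted is not given in the sources used here. Its few counts are not read as low expression. Galnt12 (chromosome 4, 47091909 to 47123070) had WT counts of 4, 7 and 4 and TCKO counts of 4, 5 and 3 and was too low to be tested. A difference in Galnt12 was not detectable at this depth.

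C1galt1 (ENSMUSG00000042460, chromosome 6, 7844842 to 7875687, plus strand), the core 1 enzyme, was at a similar level in both genotypes. It had 50.5, 57.7 and 52.5 CPM in WT and 60.0, 53.8 and 46.3 CPM in TCKO. Its log2 fold change was -0.01 ± 0.11 (SE), with a 95% interval from -0.26 to 0.25, and its sign changed with the libraries and scaling used.

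Of the 10 genes, 9 passed the filter on low counts. Counted by the rule used for all genes (adjusted p under 0.05), 1 of them was lower in TCKO (Galnt10) and 2 were higher (Galnt16 and Galnt18). With the replicate number as a block 2 were lower, Galnt11 being added, but 1 when replicates 1 and 2 were also summed. Summed without the block, 0 were lower and 1 (Galnt18) was higher, so that Galnt10 and Galnt16 were both lost. The number higher was 1, Galnt16 being lost, when WT replicate 1, 2 or 3 or TCKO replicate 1 or 2 was left out, and the number lower was 2 without WT replicate 3. In the fit to all 6 libraries, Galnt10, Galnt16 and Galnt18 each differed by over 2-fold. Over all genes tested, 8.63% were lower and 9.07% higher by this rule, and 3.19% and 3.16% when a difference over 2-fold was also required. CPM ranges of WT and TCKO were separate for 4 of the 9 (Galnt7, Galnt10, Galnt16 and Galnt18), against 38.3% of all genes tested. The median log2 fold change of the 9 was 0.31 beside 0.00 for all genes tested, whose 5th and 95th percentiles were -0.89 and 0.87. Because this contrast was known when the genes were put together, nothing is read from these counts or from this median.

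**Figure D2:**
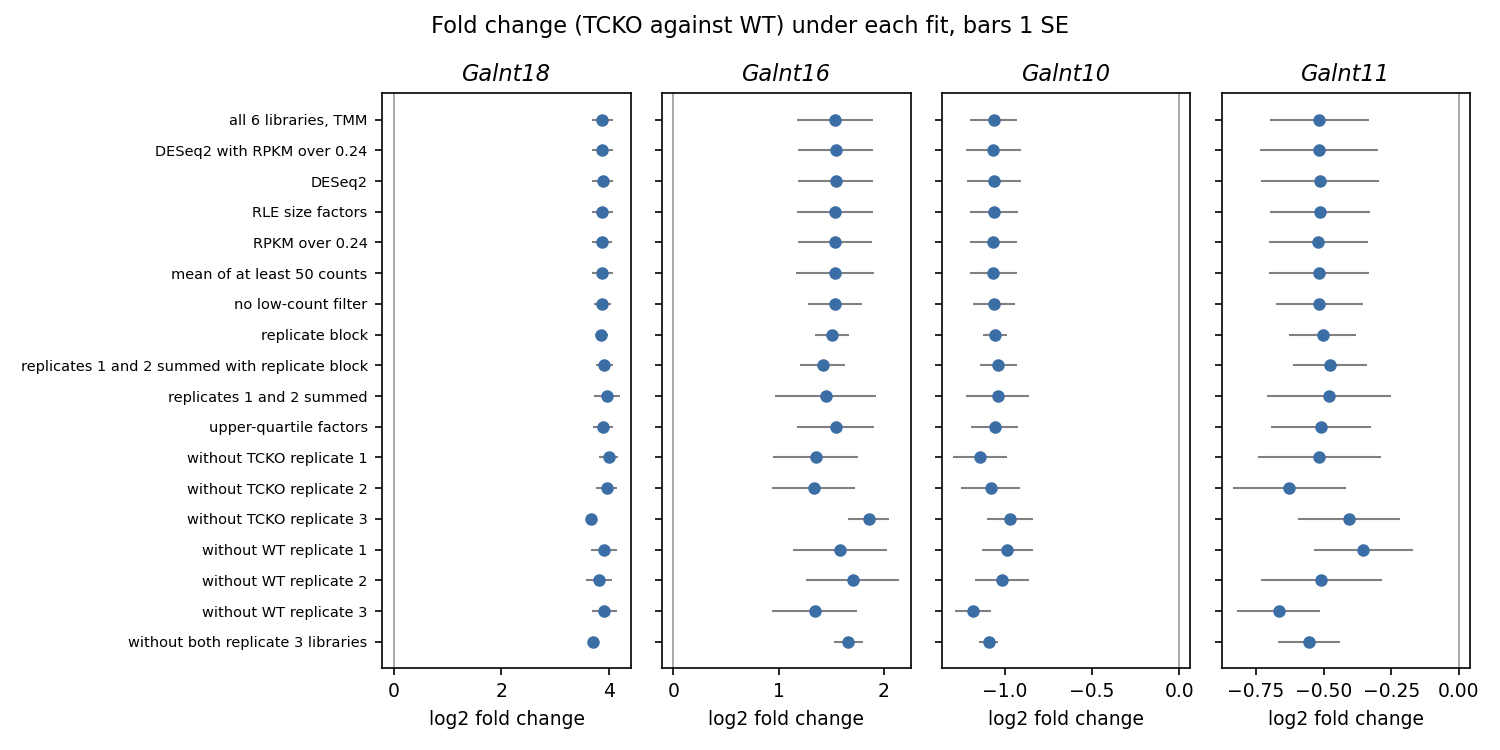
Log2 fold change, TCKO against WT, of Galnt18, Galnt16, Galnt10 and Galnt11 under the fit to all 6 libraries and 17 alternatives, with bars of 1 SE and a separate horizontal scale for each gene. All points of Galnt18 and Galnt16 lie above 0 and all of Galnt10 and Galnt11 below 0, and the widest spread between fits is that of Galnt16, from 1.33 to 1.86.

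To compare genes with one another, levels were expressed per length, in reads per kilobase of exon at a library size of 1000000 (RPKM), over all 19 genes of the GALNT family in the table. Galnt2 entered with its full 4282 bp of exon, of which 428 bp are its own, so its level and rank are uncertain. In WT the highest level was that of Galnt10 (32.4 ± 4.96 RPKM, SD, n = 3), followed by Galnt1 (17.5 ± 0.997 RPKM), Galnt4 (8.20 ± 1.07), Galnt17 (6.50 ± 1.55) and then Galnt18 (3.86 ± 0.288). The ranges of Galnt4 and Galnt17 over libraries overlapped, as did those of Galnt18, Galnt11 (3.74 ± 0.820) and Galnt7 (3.38 ± 0.191), although Galnt4 was above Galnt17 and Galnt18 above Galnt7 in each WT library. Galnt3 (1.11 ± 0.401) and Galnt16 (0.910 ± 0.235) overlapped as well. In TCKO the order began with Galnt18 (56.4 ± 13.5 RPKM), followed by Galnt1 (18.2 ± 1.41), Galnt10 (15.5 ± 1.82), Galnt17 (8.12 ± 0.561), Galnt4 (6.84 ± 0.340) and Galnt7 (4.20 ± 0.203). Galnt16 (2.66 ± 1.14) and Galnt11 (2.62 ± 0.392) overlapped in TCKO. C1galt1 stood at 8.79 ± 0.609 RPKM in WT and 8.77 ± 1.13 RPKM in TCKO.

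Shares and totals here carry the uncertain level of Galnt2, which may be too low. Galnt18 made up 4.68%, 4.23% and 5.86% of the summed RPKM of the family in the WT libraries and 43.0%, 44.0% and 55.4% in the TCKO libraries. Galnt10 went the other way, from 42.0%, 41.5% and 38.7% to 15.6%, 14.0% and 10.4%. The share of Galnt1 was 22.2 ± 1.46% in WT and 15.5 ± 0.344% in TCKO (SD, n = 3) although its own level was similar, since the family total was larger in TCKO. The total was 79.3 ± 8.90 RPKM in WT and 118 ± 10.6 RPKM in TCKO, a ratio of 1.48. Without Galnt18 the other 18 genes summed to 75.4 ± 9.04 RPKM in WT and 61.3 ± 3.13 RPKM in TCKO, a ratio of 0.813. In bulk RNA, a change in the number of cells that express a gene and a change in RNA per cell cannot be told apart.

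**Figure D3:**
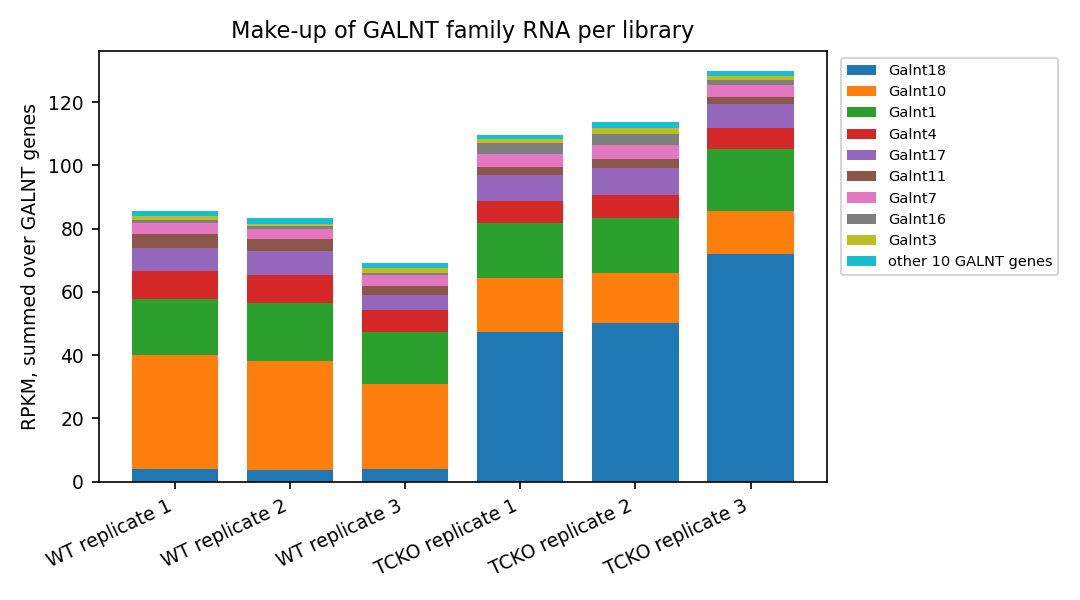
RPKM of the GALNT family genes stacked for each of the 6 libraries, with the 9 genes of highest level named and the other 10 added together. Galnt10 is the largest segment in all WT libraries and Galnt18 the largest in all TCKO libraries, where the total is also higher. Galnt2, whose level is uncertain, is among the other 10.

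The 10 family members outside the set were mostly low or similar between genotypes, and 5 passed the filter. Galnt5 fell in TCKO, from 23, 16 and 15 counts to 5, 8 and 2 (log2 fold change -1.78 ± 0.49, SE; Benjamini-Hochberg adjusted p = 0.0410, edgeR quasi-likelihood test). It lost the threshold without any of WT replicates 1, 2 and 3 and TCKO replicates 1 and 3, with log2 fold changes of -1.51, -1.95, -1.86, -1.76 and -1.38. Galnt13 rose from 8, 13 and 7 counts to 18, 17 and 21 (1.04 ± 0.29, SE; adjusted p = 0.0438, same test) but did not pass in 14 of 16 alternative fits, the replicate block (1.05) and every fit without 1 library (0.92 to 1.25) among them. Galnt17, the subfamily relative of Galnt18, had WT counts of 564, 709 and 366 and TCKO counts of 688, 645 and 627, and its log2 fold change was 0.32 ± 0.17 (SE), which did not pass. Galnt4 likewise did not pass (-0.26 ± 0.11). Exons of Galnt4 overlap Poc1b on the same strand and those of Galnt5 overlap Ermn on the other, so their counts are less certain.

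The later steps of mucin-type chains were examined next. Of 12 genes for the core chaperone, core extension and sialic acid capping, 9 were tested, and 0 passed in either direction (edgeR quasi-likelihood test; 0 by DESeq2 as well), with log2 fold changes between -0.55 and 0.42. At an unadjusted p under 0.05, 2 of the 9 were lower and 1 higher. With the replicate block 1 was lower (Gcnt1, -0.54), and without both replicate 3 libraries 3 were lower and 1 higher. Over all genes tested, 8.63% were lower and 9.07% higher, so a count of 0 of 9 is not read as particular to these steps. C1galt1c1, which encodes Cosmc, the chaperone that C1galt1 protein needs to fold, had a log2 fold change of 0.30 ± 0.13 (SE) and its genotypes overlapped. Gcnt1, the core 2 branching enzyme that competes for the product of C1galt1, had WT counts of 83, 97 and 65 and TCKO counts of 56, 54 and 52, for a log2 fold change of -0.55 ± 0.17 (adjusted p = 0.0584). St3gal1 and St3gal2, which cap core 1 with sialic acid, had values of -0.05 and 0.06.

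Genes that supply sugar nucleotides followed. Of 12 tested, 0 fell and 2 rose by edgeR, beside 8.63% and 9.07% of all genes tested. At an unadjusted p under 0.05 the counts were 2 and 3, and DESeq2 passed 2 genes in all. Gfpt2, the first step of the hexosamine pathway that leads to UDP-GalNAc, had WT counts of 141, 178 and 180 and TCKO counts of 316, 325 and 274 (log2 fold change 0.92 ± 0.14, SE; Benjamini-Hochberg adjusted p = 0.00440, edgeR quasi-likelihood test). Gfpt2 did not pass when replicates 1 and 2 were added together, either blocked (0.83) or unblocked (0.82). Its paralogue Gfpt1 had a value of 0.18 ± 0.11. Nans, of sialic acid synthesis, rose by 0.36 ± 0.08 (adjusted p = 0.0225, same test), but did not pass without WT replicate 1 (0.33) or 2 (0.36) or TCKO replicate 1 (0.38) or 2 (0.30). Among proteins known to carry mucin-type glycans, 19 of 20 were in the table and 5 were tested, and most mucin genes held few or no counts. Muc15, a membrane mucin, rose from 0, 1 and 0 counts in WT to 28, 23 and 37 in TCKO, at least 9.35-fold higher when WT is set to 3 counts per library (adjusted p = 0.000696, same test). Muc15 overlaps Ano3 on the other strand, so its reads are less certain. Pdpn and Cd44, the abundant carriers, had log2 fold changes of 0.18 ± 0.08 and -0.24 ± 0.11 and did not pass. Together, 31 of 55 mucin-type pathway genes outside the set were tested, of which 1 fell (2 with the replicate block) and 4 rose, with a median of 0.06. Beside 8.63% lower and 9.07% higher over all genes tested, these counts are not read as particular to the pathway.

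**Figure D4:**
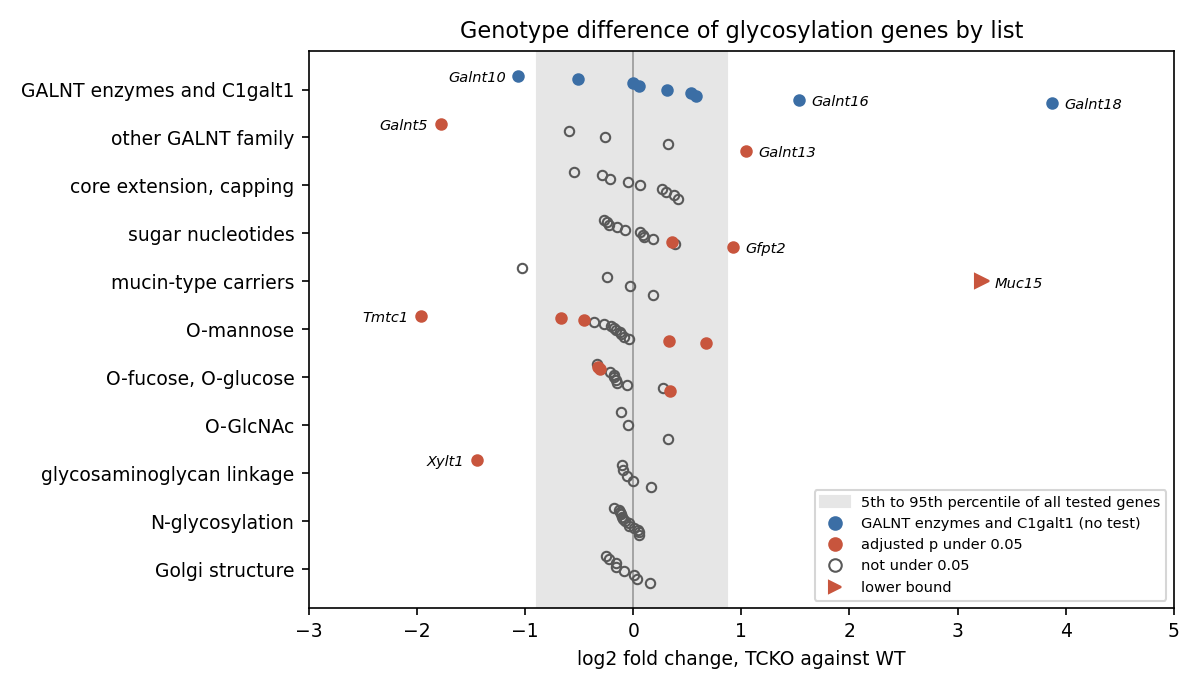
Log2 fold change, TCKO against WT, of each tested gene in 11 lists, filled red where the adjusted p of a gene outside the set was under 0.05, with the 5th to 95th percentile of all tested genes in grey. The 10-gene set is in blue, with no test shown. Blue or red genes beyond 0.8 in either direction are named, and the triangle marks the lower bound for Muc15. Galnt18 lies furthest to the right as drawn, but the difference of Muc15 may be larger than its bound. N-glycosylation and Golgi genes lie close to 0.

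Other kinds of protein glycosylation were set beside the GALNT enzymes. Of 34 tested genes for O-mannose, O-fucose, O-glucose, O-GlcNAc and glycosaminoglycan linkage, 6 fell and 3 rose, beside 8.63% and 9.07% of all genes tested, with a median log2 fold change of -0.14. The largest decreases were those of Tmtc1, an O-mannosyltransferase of cadherins (-1.96 ± 0.33, SE; Benjamini-Hochberg adjusted p = 0.00668, edgeR quasi-likelihood test), and Xylt1, which starts glycosaminoglycan chains on proteoglycans (-1.45 ± 0.20; adjusted p = 0.00285). Tmtc2 (-0.67), Pomt2 (-0.45), Pofut1 (-0.31) and Poglut3 (-0.33) also fell, and Tmtc4 (0.67) and Gxylt1 (0.34) were among those that rose, each by under 2-fold. For these 6, the call was lost in between 6 and 11 of 17 alternative fits, including those without WT replicate 1, WT replicate 2, TCKO replicate 1 or TCKO replicate 2. Over all these fits the log2 fold change stayed between -0.80 and -0.55 for Tmtc2, -0.57 and -0.36 for Pomt2, -0.36 and -0.28 for Pofut1, -0.42 and -0.24 for Poglut3, 0.59 and 0.83 for Tmtc4, and 0.28 and 0.37 for Gxylt1. Poglut3 also lost the threshold with the replicate block (-0.32). Tmtc1 lost it with replicates 1 and 2 summed (-1.87). Nans, Pomt2, Tmtc2, Tmtc4 and Poglut3 overlap a gene on the other strand. Of 13 N-glycosylation genes and 8 genes of Golgi structure, 0 passed in either direction by edgeR or DESeq2, and the values of the N-glycosylation genes lay between -0.17 and 0.05. At an unadjusted p under 0.05, 1 of the 13 and 2 of the 8 were lower and 0 were higher. Without both replicate 3 libraries, 4 of the 13 were lower and 1 higher, and 2 of the 8 were lower.

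Some cell type markers differed between genotypes beside these differences, where 8.63% of all genes tested were lower and 9.07% higher. Summed ranges of the haematopoietic and osteoclast, the epithelial, and the Schwann cell and neuron lists overlapped between genotypes. The summed level of 10 chondrocyte markers was 6491 to 8408 CPM in WT and 748 to 1031 CPM in TCKO, with 9 of 10 genes lower. The sum of 11 osteoblast markers was 40754 to 43599 CPM in WT and 22259 to 37010 CPM in TCKO, with 4 of the 8 tested lower and 1, Spp1, higher (log2 fold change 2.62), and the late markers Bglap, Phex and Dmp1 had at most 13 counts in any library. Haematopoietic and osteoclast markers (11 genes) summed to 515 to 889 CPM in WT and 184 to 600 CPM in TCKO, with 4 of 11 lower, and 8 skeletal muscle markers to 7.48 to 25.8 CPM and 35.4 to 82.5 CPM, with Acta1 higher (log2 fold change 3.14) and Myf5 at 0 in every library. Endothelial markers (7 genes) summed to 2.39 to 3.52 CPM in WT and 34.7 to 95.3 CPM in TCKO, nearly all of it Kdr in TCKO, and the other 6 had at most 8 counts, and 8 epithelial markers summed to 1.82 to 5.39 CPM in WT and 0.112 to 1.99 CPM in TCKO. Of these, Trp63 fell from 30, 52 and 13 counts to 1, 0 and 0, Krt14 was at 0 and the others had at most 7 counts. For 6 Schwann cell and neuron markers the sums were 76.4 to 99.5 CPM and 75.9 to 85.3 CPM, and of the 3 tested S100b was lower (log2 fold change -3.42). The part of these cell types in the levels of Galnt18, Galnt16 and Galnt10 was not tested.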

How the data were processed

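Primary calvarial osteoblasts of WT and TCKO mice were profiled by poly(A) RNA sequencing with a strand-specific kit, with 3 libraries per genotype grouped by the labels. According to the submitters' processing notes and the study's methods, the authors aligned reads with STAR 2.7.0e to GRCm38 (Ensembl annotation) and counted them over exons with featureCounts 2.0.0. The deposited values are raw counts per gene, not normalized, beside exon length in bp. Whether counting used strand, and how shared reads were treated, is not given in the sources used here, so genes that overlap others are uncertain. There were 0 sample columns without a sample and 0 rows without a gene. Symbols were found for 99.4% of genes.

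Members and gene lists were chosen with earlier results of these data known. Counts were tested with edgeR 4.0.16 in R 4.3.3 (filterByExpr, TMM factors, glmQLFit and glmQLFTest, genotype only, 6 libraries), with Benjamini-Hochberg adjustment over 13826 genes holding 99.7% to 99.8% of counts, and a threshold of 0.05 on the adjusted p. Standard errors came from the quasi-likelihood statistic. CPM and RPKM used TMM-scaled totals and exon length, while the CPM given for 3 counts used raw totals. Differences within replicates used log2 of CPM plus 2. On simulated data, this test recovered 78% of genes changed 2-fold and 100% of those changed 4-fold in the comparison of TCKO against WT. The simulated libraries were independent and used the trended dispersion, without the closeness of replicates 1 and 2, so these rates may not hold here. Pairing by replicate number was checked: same-numbered libraries deviated together from their genotype means across genes, which are not independent, with r = 0.204, 0.214 and 0.347 for replicates 1, 2 and 3, all over 0.1, so the number was used as a block in an alternative. Deviations from a mean of 3 libraries are tied to one another, and libraries with different numbers were not compared. These r therefore do not show that the libraries were paired. The other alternatives were DESeq2 1.42.0 with and without the study's RPKM minimum of 0.24, RLE or upper-quartile factors, that minimum or a mean of 50 counts or no filter on low counts, replicates 1 and 2 summed with and without the block, each library left out, and both replicate 3 libraries left out. All genes of the set were named, with genes of each list past the threshold (at most 6, by size of the difference), the 5 genes most like Galnt18, and Tet1, Tet2 and Tet3, except that 1 list gene past the threshold is not reported here. Other genes were named after their values were seen, to show a role in the pathway. Floors cover counting error only, since reads that carry no molecular identifiers can be PCR copies.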

Additional observations from a re-analysis of the deposited data

How the results depend on the processing

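The log2 fold change of Galnt18 lay between 3.66 and 3.98 over 17 alternatives, which describes the fits only, since the set was chosen with this contrast known. Of the genes of the set that were tested, Tet1, Tet3 and the list genes past the threshold, all kept their direction in every alternative except C1galt1 and Galnt1. C1galt1 had a log2 fold change of 0.000135 with upper-quartile factors and 0.071 without both replicate 3 libraries, and between -0.098 (without TCKO replicate 1) and 0.092 (without TCKO replicate 3) with 1 library left out. Galnt1 had -0.057 without both replicate 3 libraries, and between -0.0074 (without TCKO replicate 3) and 0.089 (without WT replicate 2) with 1 left out. Over single genes, 87 values fell below the threshold and 6 passed it newly, while 305 stayed on their side. No scaling moved the median of all genes by over 0.03 on the log2 scale.

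Counts of genes moved more. With the replicate block, genes of the set lower in TCKO became 2, with Galnt11 added (-0.50), and other mucin-type genes lower became 2. Outside the set, the block lost the calls of Galnt13 (1.05) and Poglut3 (-0.32) and added Gcnt1 (-0.54), Galk2 (0.38), Rxylt1 (-0.27) and Eogt (0.32), and changed no other call in the glycosylation lists. With no filter on low counts, 2 genes of the set were lower, and with a mean of at least 50 counts 2 other mucin-type genes were higher. With replicates 1 and 2 summed, leaving fewer libraries, 217 genes in all were higher and 169 lower, of which 1 and 0 were in the set and 1 and 0 were other mucin-type genes. With the same sums and the replicate block, the numbers over all genes were 584 and 566 and those of other mucin-type genes 1 and 0, while the set had 2 higher and 1 lower. Without both replicate 3 libraries, which differ most from the rest, 3121 genes were higher and 3116 lower, with 4 and 2 in the set and 8 and 9 other mucin-type genes. Leaving out 1 library at a time gave 603 (without WT replicate 2) to 1613 (without WT replicate 3) higher and 550 to 1509 lower genes, 1 to 2 higher and 1 to 2 lower in the set, and 2 to 5 higher and 0 to 3 lower other mucin-type genes. The cause of these shifts was not tested. Without both replicate 3 libraries, the spread came only from replicates 1 and 2, which were much closer to each other than to replicate 3. Calls from that fit are therefore less cautious than those from all 6 libraries. With 3 libraries per genotype and between 8019999 and 10177214 counts, Galnt12 had at most 7 counts in a library.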

Other observations

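Genes next to Galnt18, Galnt16 and Galnt10 were read after the values of the set were seen. The nearest tested gene on either side of Galnt18 was Eif4g2, a translation factor, 389 kb away, with a log2 fold change of 0.11 ± 0.09 (SE), and Usp47, a deubiquitinase, 244 kb away, with 0.35 ± 0.07 (Benjamini-Hochberg adjusted p = 0.0131, edgeR quasi-likelihood test). Both were far below the difference of Galnt18 itself, 3.87. Beside Galnt16, Exd2 had 0.00 ± 0.12 and Erh, 3.05 kb away, 0.32 ± 0.08 (adjusted p = 0.0245, same test). Beside Galnt10, Mfap3, 112 kb away, had -0.11 ± 0.08 and did not pass. On the other side 2010001A14Rik, 7.985 kb away and with only 11 to 21 counts per library, had 0.00 ± 0.34 and did not pass.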
